A study of Mus musculus with 32 samples.

Results

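The genes of MHC class I molecules and of their transactivator were followed in YUMM3.3 cells, a mouse melanoma cell line. The members were given as a list of 10 symbols, namely the classical heavy chains H2-K1 and H2-D1, the non-classical heavy chains H2-T22, H2-T23, H2-Q4, H2-Q6, H2-Q7 and H2-M3, the light chain B2m, and Nlrc5. Of these, 8 had a row among the 12451 genes of the deposited table, and H2-Q6 and H2-Q7, which had none, were not analysed here. All 8 passed the filter on low counts at both time points. H2-Q4, H2-M3 and Nlrc5 did so only through wells given IFN-γ.

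The mRNA was measured by BRB-seq, a method that tags the cDNA of each well, pools all wells into 1 library and reads transcripts at their 3′ end. The 32 samples were wells of 6-well plates and formed 8 groups of 4. At 4 hrs and again at 12 hrs, 1 group was left untreated, 1 received 40 ng/ml Activin-A, 1 received 20 ng/ml IFN-γ and 1 received both factors at these doses. The doses are those of the labels, and the study's text names another Activin-A dose in places for such treatments. Every group is the same single Braf mutant cell line, and by the labels the groups differ in treatment and time alone. How the wells were placed on plates is not given in the sources used here. A difference between plates that ran with the groups could not be told apart from treatment or time. The labels describe the replicates only as quadruplicate wells, so that p-values measure the spread between wells. The comparisons ask what IFN-γ does to each gene, what Activin-A does alone, and what it does on top of IFN-γ.

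An MHC class I molecule is a heavy chain bound to the light chain β2-microglobulin, and it displays peptides from proteins made inside the cell at the cell surface. Classical heavy chains show these peptides to CD8+ T cells, whereas non-classical chains present narrower sets of ligands, many of them to NK cells or to unconventional T cells. NLRC5, a protein of the NOD-like receptor family, acts in the nucleus with factors bound at class I promoters and raises the transcription of heavy chains and of B2m, and its own gene is a target of IFN-γ signaling.

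Total counts per well ranged from 654539 to 1455074, and 3 counts, used as a floor, corresponded to 2.06 to 4.58 CPM (counts scaled to the library size), for counting error only. Wells of a group differed by 1.16 to 1.54 per gene on a chi-square scale, on which sampling noise alone gives 1, in 45 of 48 pairs, and by 2.45 to 2.89 in the 3 pairs that hold replicate 1 of Activin-A at 4 hrs, the well with the highest total. The label was checked against markers. All 8 melanocyte genes on the list had a row, among them Pmel, Mlana, Dct and Tyrp1, and summed to 324 to 458 CPM per well. Of 7 leukocyte genes, Cd3e, Itgam and Ncr1 had no row, and the other 4 summed to 4.36 to 25.7 CPM. Markers of endothelium (Pecam1, Cdh5) and keratinocytes (Krt5, Krt14) had no row. In bulk wells, fewer cells that express a gene and less RNA of it per cell cannot be told apart.

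The promoters of the members are shown because the genes were measured together under IFN-γ. RefSeq sequences of GRCm38.p6, a build older than the GRCm39 named in the submitters' processing notes, were matched for 9 of the 10 listed symbols, the exception being Nlrc5. The 8 heavy chain genes lie on chromosome 17 and B2m lies on chromosome 2. The 250 bases before the start are printed 5′ to 3′ on the strand of the gene for both classical chains, for the non-classical chain H2-T23 and for B2m. Capitals mark a match on either strand to an ISRE core (GAAANNGAA), to an IRF-type motif (GAANNGAAA) or to a kappaB-type motif (GGGANTNCC).
H2-K1 (chr17:34000348-34000597, minus strand): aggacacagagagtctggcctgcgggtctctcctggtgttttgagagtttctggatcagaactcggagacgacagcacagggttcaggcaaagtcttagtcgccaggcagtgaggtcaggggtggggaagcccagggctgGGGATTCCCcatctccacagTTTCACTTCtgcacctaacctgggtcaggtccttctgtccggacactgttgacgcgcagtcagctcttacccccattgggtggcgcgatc
H2-D1 (chr17:35262844-35263093, plus strand): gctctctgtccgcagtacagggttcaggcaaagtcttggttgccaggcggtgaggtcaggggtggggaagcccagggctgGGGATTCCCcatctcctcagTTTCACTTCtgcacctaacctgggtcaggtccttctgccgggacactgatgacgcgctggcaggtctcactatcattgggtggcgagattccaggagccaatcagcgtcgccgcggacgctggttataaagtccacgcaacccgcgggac
H2-T23 (chr17:36032702-36032951, minus strand): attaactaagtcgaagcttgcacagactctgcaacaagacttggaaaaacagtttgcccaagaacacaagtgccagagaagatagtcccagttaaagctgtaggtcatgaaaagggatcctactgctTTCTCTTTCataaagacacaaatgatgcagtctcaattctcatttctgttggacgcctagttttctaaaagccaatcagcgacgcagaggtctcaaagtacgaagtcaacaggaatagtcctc
B2m (chr2:122147437-122147686, plus strand): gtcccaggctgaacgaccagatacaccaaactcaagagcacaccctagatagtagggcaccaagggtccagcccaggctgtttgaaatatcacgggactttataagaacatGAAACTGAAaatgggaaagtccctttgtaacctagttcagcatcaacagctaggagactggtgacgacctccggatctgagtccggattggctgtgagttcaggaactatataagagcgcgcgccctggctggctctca

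In windows of 300 bases, from 250 before to 50 after the start, a kappaB-type match was present in 5 of the 9 members (H2-K1, H2-D1, H2-Q4, H2-Q6 and H2-Q7) and in 3.95% of 27025 promoters. The same 5 and H2-M3 held an IRF-type match, which occurred in 7.56% of promoters, and this motif was added after the promoters had been read. In H2-K1, H2-D1, H2-Q4 and H2-Q6 the IRF-type match followed the kappaB-type match after 11 bases, and in H2-Q7 after 10. These 5 promoters share long runs of letters around both matches. Their matches are therefore not independent of each other, and their number cannot be read against the share of all promoters. B2m, H2-T22 and H2-T23 held the ISRE core (8.57% of promoters), and H2-M3 held the only GAS match (TTCNNNGAA, 8.47%). A CRE core (TGACG) was found in 7 of 9 members and in 5681 of 27025 promoters, with H2-Q6 and H2-T23 lacking it, and a CCAAT box in 9 of 9 against 37.9%. All motifs were searched on both strands, the ISRE core and the IRF-type motif can share letters in a longer run, and no matches overlapped in these 9 windows. A match is a string of letters and no measure of binding.

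IFN-γ raised every measured member at both times. With edgeR's quasi-likelihood test, 8 of 8 were higher than in untreated cells at 4 hrs, where 4.29% of 9137 genes tested were higher, and 8 of 8 at 12 hrs, where 6.43% of 8971 were higher. The increases at 12 hrs ran from 2.69-fold for B2m to 23.7-fold for H2-T23. The median log2FC of the 8 members was 1.95 at 4 hrs and 2.72 at 12 hrs, and that of all genes tested was -0.01 at both times. Because H2-Q4, H2-M3 and Nlrc5 passed the filter only through wells with IFN-γ, the filter favored high values there. For these members the counts and medians cannot be set against the share over all genes. The plot of CPM by well shows each member in the 8 groups.

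**Figure D1:**
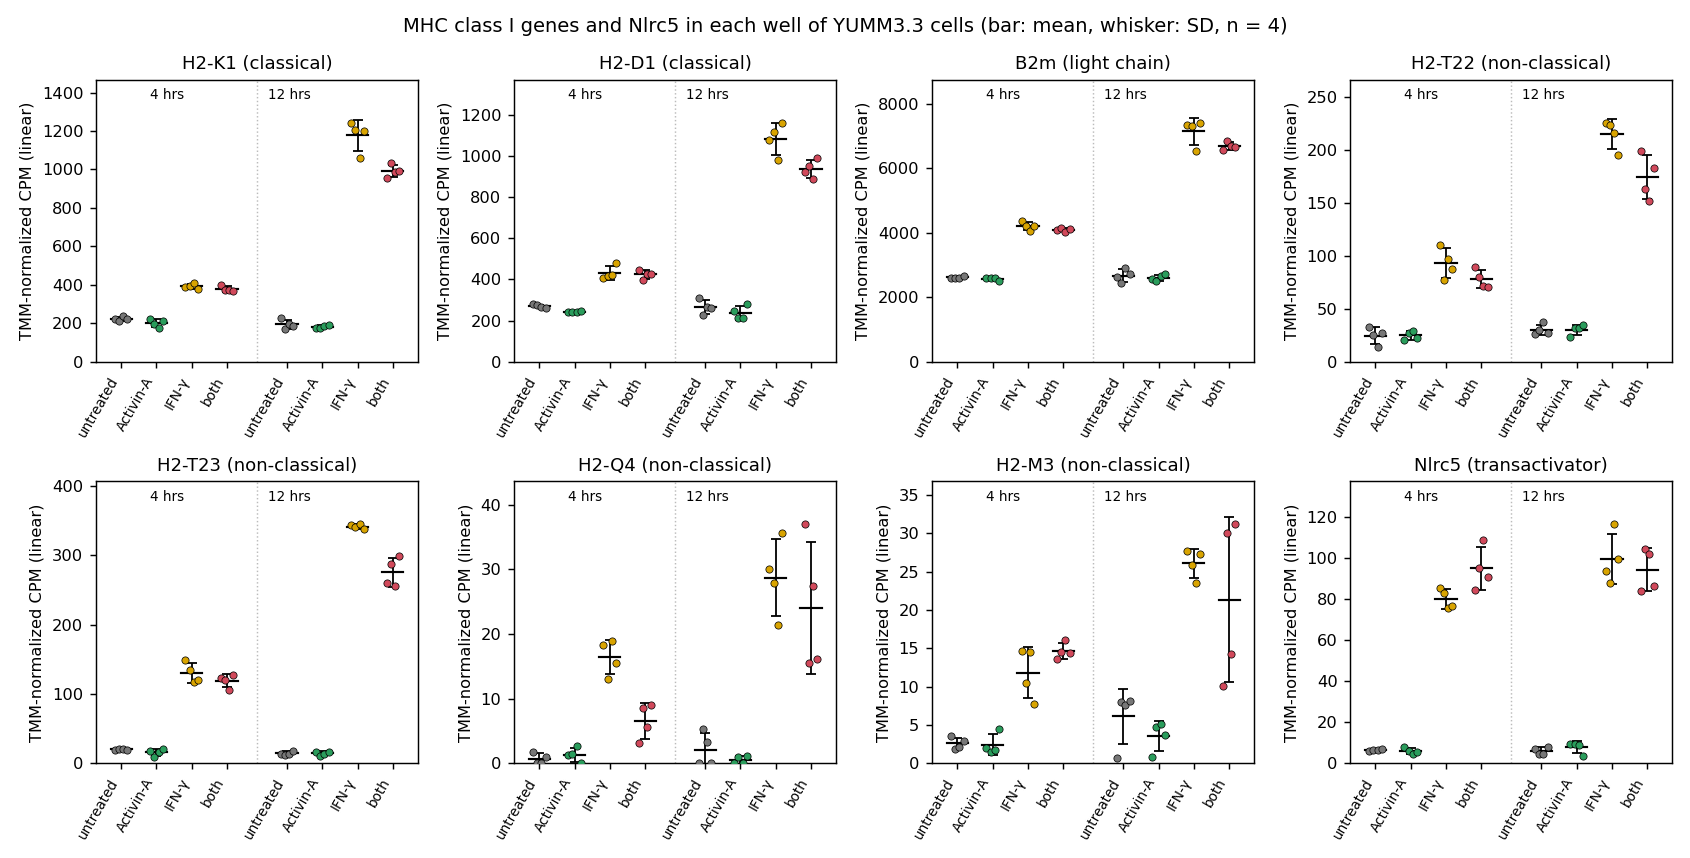
CPM, normalized by TMM, of the 8 members in each of 32 wells, on linear axes that start at 0 and differ between panels. Points are wells, horizontal bars are means and whiskers are SD (n = 4), and wells with IFN-γ stand above wells without it in every panel at 12 hrs.

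H2-K1, a classical heavy chain, stood at 221, 211, 236 and 221 CPM in the 4 untreated wells at 4 hrs and at 391, 394, 408 and 378 CPM with IFN-γ. At 12 hrs the untreated wells held 225, 170.1, 197 and 188 CPM, and those with IFN-γ held 1243, 1205, 1058 and 1202 CPM. The groups did not overlap at either time, and the distance between them was wider at 12 hrs. The log2FC was 0.82 (SE 0.077, edgeR adjusted p = 6.00e-13) at 4 hrs and 2.59 (SE 0.066, adjusted p = 8.63e-59) at 12 hrs.

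H2-D1, the other classical heavy chain, held 263 to 279 CPM in untreated wells and 404, 419, 421 and 479 CPM with IFN-γ at 4 hrs. At 12 hrs it held 229 to 309 CPM without and 1079, 1114, 979.8 and 1161 CPM with IFN-γ. Again no treated well fell within the untreated range. The log2FC was 0.68 (SE 0.073, edgeR adjusted p = 6.09e-11) at 4 hrs and 2.02 (SE 0.067, adjusted p = 6.50e-49) at 12 hrs. In the last 500 bases of the transcript, 9.53% of 50-base words of H2-D1 and 0.443% of those of H2-K1 also occur in transcripts of other genes (GENCODE M21).

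H2-T23 encodes the heavy chain of Qa-1, a ligand of the NKG2A receptor of NK cells. It held 19.3, 20.9, 20.7 and 19.8 CPM in untreated wells and 149, 135, 118 and 120.5 CPM with IFN-γ at 4 hrs. At 12 hrs it held 13.9, 11.5, 14.2 and 18.7 CPM in untreated wells and 344, 340.2, 344 and 337 CPM with IFN-γ. The treated wells at 12 hrs lay close together and far above the rest. The log2FC rose from 2.69 (SE 0.15, edgeR adjusted p = 2.44e-22) at 4 hrs to 4.57 (SE 0.13, adjusted p = 5.95e-56), or 23.7-fold, at 12 hrs. Of the 50-base words at the 3′ end of H2-T23, 38.1% also occur in other genes, with Rab33b (17.3%) and the pseudogene H2-T-ps (14.4%) sharing most.

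H2-T22 encodes a chain that binds no peptide and is seen by some γδ T cells. It held 14.1 to 32.5 CPM in untreated wells and 111, 77.7, 97.3 and 87.8 CPM with IFN-γ at 4 hrs. At 12 hrs it held 26.2 to 37.2 CPM without and 226, 223, 216 and 196 CPM with IFN-γ. The log2FC was 1.87 (SE 0.17, edgeR adjusted p = 7.57e-14) and 2.84 (SE 0.12, adjusted p = 4.90e-39), with no overlap of the groups. H2-T22 is the member with the least certain assignment, since 59.2% of its 50-base words at the 3′ end also occur in H2-T10. H2-T10 itself, named for this sharing and not by its level, had 0 to 5 counts in the wells with IFN-γ at either time and 0 to 1 in the untreated wells.

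H2-Q4, a chain of the H2-Q gene cluster, and H2-M3, which presents peptides with a formylated start as bacteria and mitochondria make them, were counted too rarely for exact folds. H2-Q4 had 2, 0, 0 and 1 counts in untreated wells and 15, 15, 13 and 18 with IFN-γ at 4 hrs, and 0, 6, 3 and 0 against 25, 27, 20 and 43 at 12 hrs. All treated wells were above all untreated wells. The ratio of summed counts, scaled to depth, was 21.9 (95% exact interval for counting error 7.16 to 109) at 4 hrs and 13.6 (6.92 to 30.5) at 12 hrs. The edgeR log2FC was 4.26 (adjusted p = 2.77e-08) and 3.69 (adjusted p = 5.40e-13). Single untreated wells with a few counts moved these values, to 5.15 without untreated replicate 1 at 4 hrs and to 4.72 without untreated replicate 2 at 12 hrs. H2-M3 had 2 to 4 counts without and 9 to 12 with IFN-γ at 4 hrs, and 1 to 9 against 22 to 33 at 12 hrs. These wells did not overlap either, with ratios of summed counts of 4.22 (2.14 to 9.06) and 4.57 (2.91 to 7.45). For H2-M3 the edgeR log2FC was 2.04 (adjusted p = 5.78e-04) and 2.16 (adjusted p = 1.46e-07). Words of 50 bases are shared with other genes for 33.7% of the 3′ end of H2-Q4 and 0% of that of H2-M3.

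B2m, the light chain that every heavy chain needs, was at 2605, 2600.0, 2593 and 2665 CPM in untreated wells and at 4348, 4218, 4045 and 4212 CPM with IFN-γ at 4 hrs. At 12 hrs it was at 2615, 2432, 2905 and 2709.9 CPM without and at 7345, 7302, 6523 and 7407 CPM with IFN-γ. The untreated wells of both times lay in 1 range, and the treated wells were above it. The log2FC was 0.69 (SE 0.049, edgeR adjusted p = 1.06e-17) at 4 hrs and 1.43 (SE 0.045, adjusted p = 1.99e-50) at 12 hrs.

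Nlrc5, the transactivator, held 6.16, 6.65, 6.53 and 6.95 CPM in untreated wells and 85.3, 82.9, 75.5 and 76.6 CPM with IFN-γ at 4 hrs. At 12 hrs it held 4.37 to 8.17 CPM, from 4 to 9 counts, without and 93.7, 87.9, 116 and 99.4 CPM with IFN-γ. Wells with IFN-γ at 4 hrs were below all those at 12 hrs, but the 2 ranges were near each other. The log2FC was 3.59 (SE 0.20, edgeR adjusted p = 6.41e-22) at 4 hrs and 4.03 (SE 0.21, adjusted p = 7.98e-33) at 12 hrs.

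The members differed in how far their response to IFN-γ, on the log2 scale, grew between 4 and 12 hrs. A difference of log2FC is not the share of a response already present at 4 hrs. In a single fit of the 32 samples, the IFN-γ effect at 12 hrs minus that at 4 hrs was above 0 for 5 of 8 members by edgeR, where 0.439% of 9332 genes had such a difference. It was 1.78 (SE 0.10, adjusted p = 2.98e-25) on the log2 scale for H2-K1, 1.3595 (SE 0.10, adjusted p = 1.99e-18) for H2-D1, 0.75 (SE 0.067, adjusted p = 7.72e-15) for B2m, and 1.89 (SE 0.24, adjusted p = 2.17e-08) for H2-T23. For H2-T22 it was 0.99 (SE 0.23, adjusted p = 0.0132). That call was lost when 1 well was left out, namely untreated replicate 1 (adjusted p = 0.186) or 4 (0.0600) at 4 hrs, IFN-γ replicate 2 at 4 hrs (0.0507) or untreated replicate 1 at 12 hrs (0.0679). Nlrc5 did not pass, with a difference of 0.46 and a 95% interval from -0.33 to 1.24 (adjusted p = 0.889). Its interval and that of H2-K1, 1.57 to 1.98, do not meet. H2-M3 differed by 0.14 (interval -1.46 to 1.73) and H2-Q4 by -0.55 (interval -2.27 to 1.16), so that low counts left either direction possible.

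In untreated cells no member passed the test between the times. Of the 8, 0 passed edgeR's test between untreated cells at 12 hrs and at 4 hrs, against 4.90% of 9332 genes, and 2 had an unadjusted p under 0.05, as did 1637 of the 9332 genes. These were H2-K1, with a log2FC of -0.18 (adjusted p = 0.205), and H2-T23, with -0.49 (adjusted p = 0.256). All 4 untreated wells of H2-T23 at 12 hrs, with 13 to 18 counts, were below those at 4 hrs, with 19 to 22. How many of all genes separate in this way was not counted. The lower untreated level of H2-T23 enters its time difference of 1.89 and its 23.7-fold increase at 12 hrs.

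**Figure D2:**
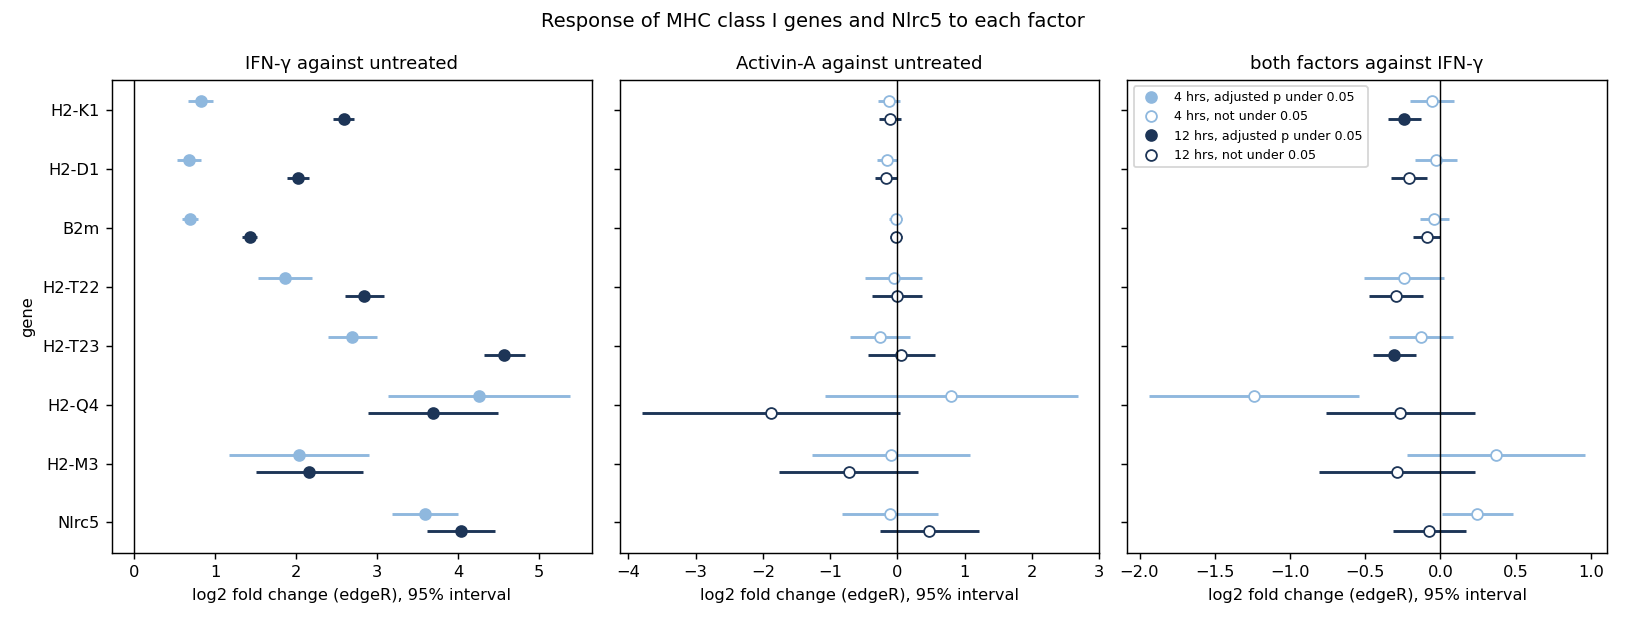
The log2FC of each member by edgeR with its 95% interval, in 3 comparisons at 4 hrs (light) and 12 hrs (dark), on axes that differ between panels. Filled points have an adjusted p under 0.05: all 16 for IFN-γ, 0 for Activin-A alone, and H2-K1 and H2-T23 at 12 hrs for both factors against IFN-γ.

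Activin-A is a ligand of the TGF-β family that signals through SMAD factors. In these wells it raised 5 of 5 listed targets at 4 hrs and 4 of 5 at 12 hrs by edgeR. Among them were Ccn2 (log2FC 1.77 at 4 hrs and 1.88 at 12 hrs), Thbs1 (1.11 and 1.07) and Pmepa1 (2.55 and 1.87), with edgeR adjusted p of at most 3.76e-19. Smad7, an inhibitor of the pathway, rose at 4 hrs (log2FC 0.86, edgeR adjusted p = 4.58e-04) and had a log2FC of 0.61 (adjusted p = 0.0547) at 12 hrs. Of the class I members, 0 of 8 changed by edgeR at 4 hrs, where 1.64% of 9137 genes did, and 0 of 8 at 12 hrs, where 2.41% of 8971 did. The same 0 of 8 was found without replicate 1 of Activin-A at 4 hrs. At each time 1 member, H2-D1, had an unadjusted p under 0.05, as did 1028 of 9137 genes at 4 hrs and 1017 of 8971 at 12 hrs, a share close to 1 in 8.

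H2-D1 held 242, 244, 243 and 246 CPM with Activin-A at 4 hrs, below all 4 untreated wells, with a log2FC of -0.15 (95% interval -0.31 to -0.00, edgeR adjusted p = 0.437). The share of all genes whose wells separate in this way was not counted. At 12 hrs it held 245, 214, 211 and 282 CPM with Activin-A, which overlapped the untreated wells, with a log2FC of -0.17 (interval -0.33 to -0.01, edgeR adjusted p = 0.380). H2-K1 had a log2FC of -0.13 (interval -0.29 to 0.04) at 4 hrs and -0.11 (interval -0.27 to 0.06) at 12 hrs. B2m stayed at 2508 to 2594 CPM at 4 hrs and 2499.6 to 2715 CPM at 12 hrs with Activin-A, and its log2FC was -0.03 at both times, with intervals from -0.12 to 0.07. For Nlrc5 the log2FC was -0.10 (interval -0.82 to 0.61) at 4 hrs and 0.47 (interval -0.26 to 1.21) at 12 hrs. For H2-T22 and H2-T23 the 4 values lay between -0.25 and 0.06. At these depths H2-Q4 held 0 to 3 counts and H2-M3 1 to 5 counts per well with Activin-A, too few to show a moderate change. For H2-Q4 the log2FC was 0.80 (interval -1.08 to 2.68) at 4 hrs and -1.88 (interval -3.80 to 0.04, edgeR adjusted p = 0.459) at 12 hrs, where it was -0.84 without untreated replicate 2. With 1 well left out, the log2FC of H2-Q4 ran from 0.285 to 1.69 at 4 hrs and from -2.395 to -0.837 at 12 hrs. For H2-M3 it was -0.10 (interval -1.27 to 1.07) and -0.72 (interval -1.75 to 0.31).

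Added to IFN-γ, Activin-A was followed by lower levels of 2 of 8 members at 12 hrs. H2-K1 and H2-T23 were lower by edgeR in cells given both factors than in cells given IFN-γ alone, where 0.568% of 8971 genes were lower, and 5 of 8 members and 921 of the 8971 genes had an unadjusted p under 0.05. The log2FC was below 0 for all 8 members, with a median of -0.25 against -0.01 for all genes tested. These 8 values come from the same wells and are not independent of each other, and the wells with IFN-γ alone also serve in the comparison with untreated cells. At 4 hrs 0 of 8 passed, against 0.810% of 9137 genes changed in either direction, and 2 of 8 members and 850 of the 9137 genes had an unadjusted p under 0.05.

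For H2-K1, wells with both factors at 12 hrs held 957, 1035, 988 and 991 CPM, all below the 1058 to 1243 CPM of wells with IFN-γ alone. The log2FC was -0.24 (SE 0.055, 95% interval -0.35 to -0.13, edgeR adjusted p = 0.0060), a ratio of 0.846. For H2-T23 they held 259.7, 288, 256 and 299 CPM, below 337 to 344 CPM with IFN-γ alone, and the log2FC was -0.31 (SE 0.073, interval -0.45 to -0.16, edgeR adjusted p = 0.0106), a ratio of 0.809. Both calls rest on the spread of few wells. The call of H2-K1 was lost without IFN-γ replicate 2 (log2FC -0.22, adjusted p = 0.0575). That of H2-T23 was lost with DESeq2 (log2FC -0.30, adjusted p = 0.0674) and by edgeR without replicate 1 (adjusted p = 0.0717) or replicate 3 (adjusted p = 0.0881) of the wells with both factors.

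H2-D1 held 920.1, 949, 889.8 and 987 CPM with both factors, 3 of them below the lowest well with IFN-γ, and had a log2FC of -0.21 (SE 0.059, interval -0.33 to -0.09, edgeR adjusted p = 0.0568). It passed with limma-voom (adjusted p = 0.0302), with no filter on low counts (0.0467), with the replicate block and without IFN-γ replicate 3 (0.0209). Its adjusted p reached 0.287 with 1 well left out. H2-T22 held 199, 163, 152 and 183 CPM with both factors, again with 3 wells below those with IFN-γ alone, and had a log2FC of -0.29 (SE 0.089, interval -0.47 to -0.12, edgeR adjusted p = 0.0994). It passed without replicate 1 of the wells with both factors (log2FC -0.36, adjusted p = 0.0413), and its adjusted p ran up to 0.398 with another well left out. B2m held 6564, 6834, 6689 and 6662 CPM, within the 6523 to 7407 CPM of IFN-γ alone, with a log2FC of -0.09 (interval -0.18 to -0.00, edgeR adjusted p = 0.444). Nlrc5 held 84.0, 104, 102 and 86.5 CPM, which also overlapped its wells with IFN-γ, with a log2FC of -0.07 (interval -0.31 to 0.17, edgeR adjusted p = 0.919). Thus the transactivator was not lower by more than the spread between wells where 2 of the heavy chains were, although its interval includes the values of both. H2-Q4 (log2FC -0.27) and H2-M3 (-0.29) had intervals from -0.76 to 0.23 and from -0.81 to 0.23. H2-M3 was split among the wells with both factors, at 10.1 and 14.2 CPM in replicates 1 and 3 and 29.98 and 31.1 CPM in replicates 2 and 4.

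At 4 hrs H2-Q4 had 3, 10, 6 and 10 counts with both factors and 15, 15, 13 and 18 with IFN-γ alone. These wells did not overlap, and the ratio of summed counts was 0.422 (95% exact interval for counting error 0.262 to 0.668), but the edgeR log2FC of -1.24 (SE 0.35) had an adjusted p of 0.0712. It passed (adjusted p = 0.0321) when the fit held the 2 groups only. H2-Q4 passed the filter at 4 hrs only through the wells with IFN-γ alone, the higher group here. The filter thus favored this difference, and no conclusion is drawn from it. Nlrc5 at 4 hrs went the other way, with 84.4, 95.2, 109 and 90.7 CPM with both factors, 3 of them above all wells with IFN-γ alone, and a log2FC of 0.24 (SE 0.12, edgeR adjusted p = 0.519). H2-K1 (log2FC -0.05), H2-D1 (-0.03) and B2m (-0.04) had 95% intervals within -0.20 and 0.11 at that time. The log2FC was -0.24 (interval -0.50 to 0.02) for H2-T22 and -0.13 (interval -0.34 to 0.08) for H2-T23. For H2-M3 it was 0.37 (interval -0.22 to 0.96). It was below 0 for 6 of 8 members at 4 hrs.

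Whether Activin-A acted differently with and without IFN-γ was tested by the interaction. At 4 hrs 0 of 8 members passed edgeR's test, against 0.0% of 9137 genes, and at 12 hrs 0 of 8, against 0.0111% of 8971, and at neither time did a member have an unadjusted p under 0.05. For H2-K1 at 12 hrs the effect of Activin-A was -0.24 with IFN-γ and -0.11 without, and the difference was -0.14 (95% interval -0.33 to 0.06, edgeR adjusted p = 0.880). For H2-T23 it was -0.31 with and 0.06 without, a difference of -0.37 (interval -0.89 to 0.16, edgeR adjusted p = 0.879). The decrease of these genes is therefore not shown to require IFN-γ.

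Ratios of counts within a well compare members free of library size. Over 5 ratios in 4 comparisons, the two-sided exact permutation test, with 70 ways to divide 8 wells, could reach a p of 0.0286 at the lowest, which 10 of 20 tests did, and after adjustment over the 20 tests these had a p of 0.0571, so that 0 of 20 passed. At 12 hrs IFN-γ moved the log2 ratio of H2-K1 to B2m from -3.77 ± 0.16 to -2.60 ± 0.029 (SD, n = 4), by 1.17, and that of H2-D1 to B2m by 0.61, with no overlap of wells. At 4 hrs the same ratios moved by 0.14 (permutation p = 0.0857) and by -0.02 (permutation p = 0.8286), and the wells overlapped. Thus every well with IFN-γ at 12 hrs held more of either classical chain relative to B2m than every untreated well, which was not so at 4 hrs. The ratio of H2-T23 to B2m had moved by 1.97 at 4 hrs and by 3.10 at 12 hrs, and that of H2-T22 to B2m by 1.26 and 1.41, all 4 without overlap.

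The ratio of Nlrc5 to H2-K1 rose by 2.69 with IFN-γ at 4 hrs, from -4.98 ± 0.099 to -2.29 ± 0.10, and by 1.39 at 12 hrs, from -4.96 ± 0.39 to -3.56 ± 0.27 (SD, n = 4), with no overlap at either time. When co-treated wells were set against IFN-γ at 12 hrs, H2-K1 to B2m was lower by 0.15 in log2 and H2-T23 to B2m by 0.22, and neither overlapped between groups. H2-D1 to B2m (-0.11, permutation p = 0.0571) and H2-T22 to B2m (-0.21, permutation p = 0.143) overlapped. The plot of ratios by well shows that Nlrc5 to H2-K1 was nearer to its untreated level at 12 hrs than at 4 hrs.

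**Figure D3:**
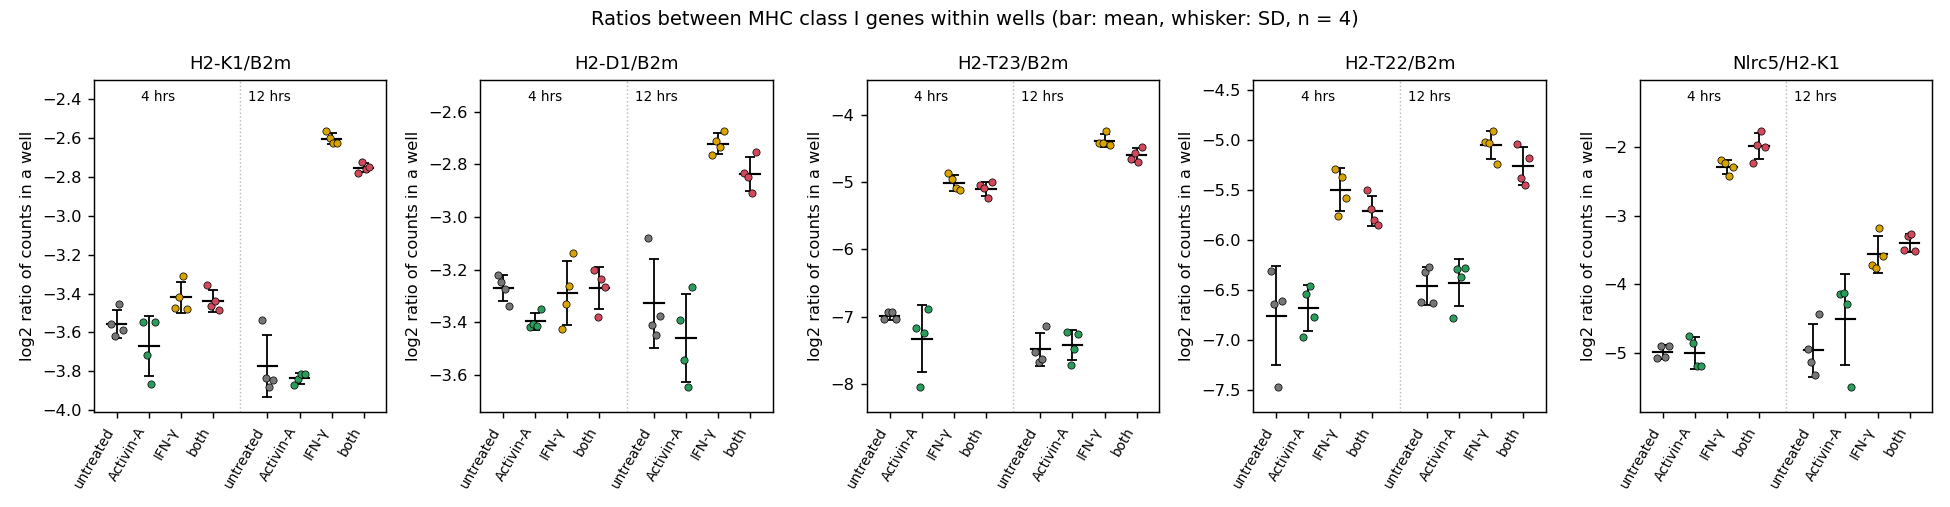
The log2 ratio of the counts of 2 genes within each well (0.5 added to each count), in the 8 groups, on axes that differ between panels. Points are wells, bars are means and whiskers are SD (n = 4), and H2-K1/B2m with IFN-γ lies near its untreated level at 4 hrs and above it at 12 hrs.

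As a description, log2 CPM over the 32 wells was compared between each of H2-K1, B2m and Nlrc5 and 8621 other genes with at least 10 counts on average. The wells fall into those with and without IFN-γ, so that Pearson's r mainly reads that division. The 5 genes most like H2-K1 were Ly6e (r = 0.977), Psme1 (0.962), Tapbp (0.956), Ifit1 (0.956) and Bst2 (0.954), and those most like B2m were Ly6e (0.991), Psme1 (0.982), Tapbp (0.977), Ly6a (0.969) and Bst2 (0.968). For Nlrc5 they included Gbp2 (0.990), Irf1 (0.988), Samhd1 (0.984) and Psmb10 (0.984). Among the members themselves r was 0.993 between H2-K1 and H2-D1, 0.848 between H2-K1 and Nlrc5, and 0.956 between H2-T23 and Nlrc5.

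Other genes of the pathway, from lists drawn up by function, were read beside the members. Of 8 genes that carry peptides into the endoplasmic reticulum and load them, 5 were higher with IFN-γ by edgeR at each time, with a median log2FC of 1.77 and 2.85. These 5 were the transporter subunits Tap1 and Tap2, tapasin (Tapbp), its relative Tapbpl and the peptide trimming enzyme Erap1, and of them only Tapbp is among the 4 with the highest CPM, the rest being named after their values were seen. Tapbp had a log2FC of 1.83 at 4 hrs and 2.88 at 12 hrs. The general chaperones Pdia3 (0.13 and 0.03), Canx (0.04 and -0.07) and Calr (-0.06 and -0.06) did not pass. All 5 genes of the immunoproteasome and its activator PA28, which cut proteins into such peptides, were higher at both times, with a median of 3.31 and 3.77, among them Psmb9 (4.04 and 5.18) and Psme1 (1.42 and 2.37). The IFN-γ effect was larger at 12 hrs than at 4 hrs by edgeR for Tapbp (difference 1.06), Erap1 (1.12), Psme1 (0.97) and Psme2 (0.81), as it was for H2-K1, H2-D1 and B2m.

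Of 6 genes of the IFN-γ signal, 3 were higher at both times, Irf1, Irf2 and Jak2, the last 2 named after their values were seen. Among the 4 with the highest CPM, Irf1 (log2FC 4.22 at 4 hrs and 3.96 at 12 hrs) rose, and Jak1 (-0.03 and -0.09) and the receptor chain Ifngr1 (0.04 and -0.44) did not pass. The other receptor chain, Ifngr2, was lower at 4 hrs by 0.42 (edgeR adjusted p = 0.0117), where 0.766% of 9137 genes were lower, and had a log2FC of -0.30 (adjusted p = 0.102) at 12 hrs. Like Nlrc5, Irf1 showed no change of the effect between the times that passed the test (difference -0.24). Of 8 factors that bind class I promoters, Nfyb, a subunit of the CCAAT-binding factor NF-Y, alone was higher (0.82 and 0.85), and Atf1, Creb1 and Nfyc had log2FC from -0.31 to 0.21.

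MHC class II genes share promoter factors with class I but need the transactivator Ciita. Of 7 on the list, 4 passed the filter and 0 were higher with IFN-γ at either time, with Cd74 at 149 CPM in untreated cells and 166 CPM with IFN-γ at 12 hrs (log2FC 0.16, edgeR adjusted p = 0.352). H2-Aa (0.12), H2-Ab1 (0.15) and H2-Eb1 (0.12) had similar values. Ciita, named for its role and not by its level, was too low to be tested, with 1 count over the 4 untreated wells and 15 over those with IFN-γ at 4 hrs, and 6 and 16 counts at 12 hrs. Of 16 further class I and class I-like genes, 8 had a row and Fcgrt alone was tested, with a log2FC of -0.55 at 4 hrs and -0.31 at 12 hrs that did not pass.

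In the comparison of both factors with IFN-γ, 0 genes passed at either time on the lists of transport and loading, immunoproteasome, IFN-γ signal, promoter factors and class II. At 12 hrs their median log2FC were -0.09, -0.11, 0.04, -0.08 and -0.05, against -0.25 for the 8 members. An unadjusted p under 0.05 was reached by 2 of 8, 2 of 5, 0 of 6, 1 of 8 and 0 of 4 genes tested on these lists at that time, as it was by 5 of 8 members. The 5 genes on these lists, named after their values were seen, were Tap1 (log2FC -0.19, edgeR adjusted p = 0.228), Tap2 (-0.31, adjusted p = 0.292), Psmb9 (-0.22, adjusted p = 0.203), Psme1 (-0.12, adjusted p = 0.382) and Rfxap (-0.53, adjusted p = 0.403). The values of Tap1, Tap2 and Psmb9 lay near those of H2-K1 and H2-D1, and a difference between the members and these genes was not tested. Of the 5 Activin-A targets, Ccn2 (1.496), Thbs1 (0.78) and Pmepa1 (0.93) were higher with both factors at that time by edgeR (adjusted p at most 0.00114), and Smad7 (0.44, adjusted p = 0.481) did not pass.

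**Figure D4:**
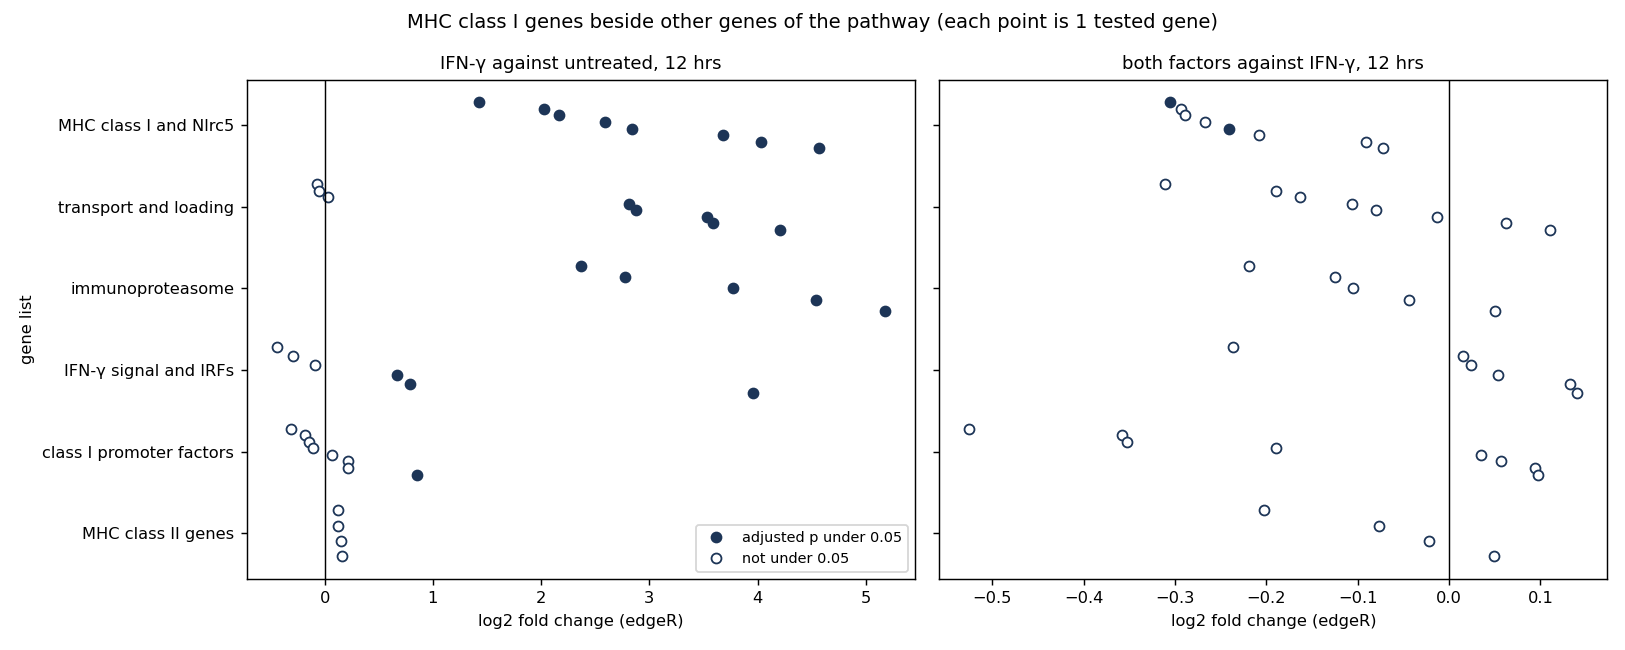
The log2FC by edgeR at 12 hrs of tested genes on 6 lists, for IFN-γ against untreated cells (left) and both factors against IFN-γ (right), on axes that differ. Each point is 1 gene, spread within a list for sight only, filled where the adjusted p is under 0.05, and on the right H2-K1 and H2-T23 are the only filled points.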

How the data were processed

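BRB-seq counts per gene of 32 wells were analysed as deposited by the authors, as raw whole-number counts without normalization. The submitters' processing notes name STAR 2.7.10b, featureCounts, DESeq2 1.36.0 and the build GRCm39, and how reads with several matches or unique molecular identifiers were handled is not given in the sources used here. Genes were named by matching Ensembl identifiers to GENCODE M21 (12437 of 12451).

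Genes were filtered with filterByExpr, normalized by TMM and tested with edgeR 4.0.16 (R 4.3.3; its quasi-likelihood functions glmQLFit and glmQLFTest), fitting the 16 wells of 4 hrs or 12 hrs together and all 32 for contrasts across time, with Benjamini-Hochberg adjustment over all genes tested and a threshold of 0.05. Groups followed the labels for treatment and time. CPM are counts scaled to TMM-normalized library sizes, with totals of 654539 to 1455074 counts. Ratios were tested by exact permutation. Overlap of wells between groups was read for the members and their ratios only, so no share over all genes stands beside it. Alternatives were DESeq2 1.42.0, limma-voom (limma 3.58.1), RLE, no filter, at least 1 CPM in 4 samples, a replicate block, all 32 samples, the 2 groups compared, and each well left out. The fits were tested on simulated data. Promoters and shared 50-base words were read from RefSeq and GENCODE sequences of GRCm38 with Python 3.11.15.

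The members and lists were chosen with earlier results of these data known. All members were named, and of each other list at most the 4 genes with the highest mean CPM and those that passed with both factors against IFN-γ; other names are marked in the text, and some genes of the lists are not reported here. The scRNA-seq and protein experiments of the study were not analysed here.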

Additional observations from a re-analysis of the deposited data

Results flagged for a closer look

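Among 64 sets of 4 wells (8 members in 8 groups), 6 held a well whose gap to the nearest other well exceeded Dixon's critical share of the range, and chance alone gives about 1 in 20. For B2m these were untreated replicate 4 at 4 hrs (2665 CPM, the others 2593 to 2605), Activin-A replicate 4 at 4 hrs (2508 CPM, the others 2589.7 to 2594) and IFN-γ replicate 3 at 12 hrs (6523 CPM, the others 7302 to 7407). For H2-M3 they were Activin-A replicate 4 at 4 hrs (4.52 CPM, the others 1.51 to 1.97) and untreated replicate 1 at 12 hrs (0.771 CPM, from 1 count, the others 7.65 to 8.17). For Nlrc5 it was Activin-A replicate 4 at 12 hrs (3.68 CPM, from 3 counts, the others 9.18 to 9.58).

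The effect of IFN-γ differed between the times by edgeR's contrast for 5 members, each higher at 12 hrs. The differences on the log2 scale were 1.78 for H2-K1, 1.3595 for H2-D1, 0.75 for B2m, 1.89 for H2-T23 and 0.99 for H2-T22.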

How the results depend on the processing

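The IFN-γ calls of 8 of 8 members held under every alternative that gave a value, except that H2-M3 at 4 hrs could not be tested with only the 2 groups compared. The count of 0 for Activin-A alone, for both interactions and for untreated cells also held. The adjusted ratios could hardly pass at these group sizes, so their count of 0 says nothing of stability. The time difference was called for 5 members, or for 4 without any 1 of the 4 wells named for H2-T22. With both factors against IFN-γ at 12 hrs the count was 1 with DESeq2 and from 1 to 3 with 1 well left out. It was 3 with the replicate block, which added H2-D1 (adjusted p = 0.0386), as did limma-voom and no filter. At 4 hrs it was 1 with only the 2 groups compared. Over all genes tested, same-numbered wells of different groups did not deviate together (mean r -0.0027 at 4 hrs and -6e-04 at 12 hrs). Such a mean cannot show whether same-numbered wells shared an effect on some genes, so whether the numbers pair wells is not settled. The replicate block changed no other count. Some values that did not pass changed sign. The effect of IFN-γ at 12 hrs minus 4 hrs on H2-Q4, -0.55 by edgeR, was 0.215 with limma-voom. With 1 well left out, log2FC ranged as follows. For Activin-A at 4 hrs it was -0.224 to 0.106 for H2-T22, -0.535 to 0.074 for H2-M3 and -0.341 to 0.029 for Nlrc5. For Activin-A at 12 hrs it was -0.080 to 0.130 for H2-T22, -0.032 to 0.178 for H2-T23 and -0.063 to 0.017 for B2m. For both factors against IFN-γ it was -0.050 to 0.028 for H2-D1 at 4 hrs and -0.128 to 0.019 for Nlrc5 at 12 hrs. The interaction was -0.031 to 0.004 for B2m at 4 hrs and -0.129 to 0.046 for H2-D1 at 12 hrs. The time difference was -1.443 (without untreated replicate 1 at 4 hrs) to 0.488 (without untreated replicate 2 at 12 hrs) for H2-Q4 and -0.326 to 0.354 for H2-M3. Untreated cells at 12 hrs against 4 hrs gave -0.113 to 0.045 for H2-D1 and -0.019 to 0.063 for B2m. The ratio H2-D1/B2m at 4 hrs was -0.069 to 0.027 for IFN-γ and -0.027 to 0.069 for both factors, and H2-K1/B2m for both factors was -0.043 to 0.021. The cause was not tested. Depth limits H2-Q4, H2-M3 and untreated Nlrc5, whose wells hold few counts.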
